A study of Drosophila melanogaster with 2 samples.

Results

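The nuclear genes of respiratory complexes II to V were examined on 2 Affymetrix arrays of Drosophila S2 cells. A gene was taken as a member where its current symbol begins with Sdh, UQCR, ATPsyn or COX and a digit, or is RFeSP, Cyt-c1, Cyt-c-p, Cyt-c-d, levy or blw. It also had to own a probe set (a group of short probes for a transcript) that the platform annotation gives to it alone. The gene table used here lists 57 genes that fit the symbols, and 45 of them, with 51 probe sets, were measured among 11982 genes on the arrays. The other 12 were not analysed here. They are SdhA, UQCR-C1, UQCR-C2, UQCR-6.4L, Cyt-c-p, Cyt-c-d, COX6B, COX7CL, ATPsynG and the mitochondrially encoded COX1, COX2 and COX3. Of the 45 members, 29 are general genes and 16 are paralogues, whose symbol adds an L, or an L and a digit, to that of a subunit. The prefix also takes in Sdhaf3, an assembly factor for complex II that is no subunit, and it is counted with the general genes.

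S2 is an established fly line of embryonic origin with features of macrophage-like blood cells (hemocytes). Both arrays come from S2 cells that received double-stranded RNA (dsRNA) against GFP, a jellyfish fluorescent protein, over 8 days in 2 rounds of 4 days. They are replicates 1 and 2 of 1 group. No other treatment was analysed here, so no effect of the dsRNA can be given, and the labels do not say that the duplicates were grown apart, so their spread may be technical.

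The respiratory chain sits in the inner mitochondrial membrane. Complex II passes electrons from succinate to ubiquinone, complex III passes them on to cytochrome c, and complex IV hands them to oxygen. Complex V, the ATP synthase, uses the proton gradient that the chain builds. In Drosophila many nuclear genes for these complexes have a duplicate, and such duplicates are known for being transcribed mainly in the testis.

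The deposited value is a linear signal intensity per probe set. Detection meant that at least 1 probe set of a gene exceeded a background limit on replicate 1 and on replicate 2. Smell and taste receptor genes, which blood-like cells are not known to use, set that limit. It was the 95th percentile over their 125 probe sets, a signal of 146 on replicate 1 and 136 on replicate 2. Of 112 such receptor genes 5 passed on both arrays, a small share that the choice of percentile largely fixes in advance. Gr61a, a sugar receptor gene, stood well above the limit at 1523 and 1458. Of the hemocyte markers 10 of 11 were detected (90.9%), compared with 49.1% of all genes. Among them were Hml, the clotting factor hemolectin, at 4877 and 4141 on replicates 1 and 2, and eater, at 233 and 229. Only the phagocytic receptor gene NimC1, at 96.6 and 127, was not detected. Each gene is given by its brightest probe set, as signals on replicates 1 and 2 in that order. Probe sets differ in how strongly they respond, so signals place a gene against the limit and do not rank one gene against another.

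General and paralogue genes fell on opposite sides of the limit with few exceptions. Of all genes on the arrays 49.1% were detected. Of the 29 general members 28 were detected (96.6%), and of the 16 paralogues 1 was (6.25%). In all, 29 of 45 members were detected (64.4%). The detected general genes had signals of 588 to 14484 on replicate 1 and 606 to 14848 on replicate 2. The paralogues had signals of 1.86 to 186 on replicate 1 and 5.68 to 178 on replicate 2. The 2 sets overlapped through a single general gene, UQCR-11. The design has no second condition, so these are counts on 2 arrays without a test. In bulk RNA, few cells with a transcript and little transcript per cell cannot be told apart.

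**Figure D1:**
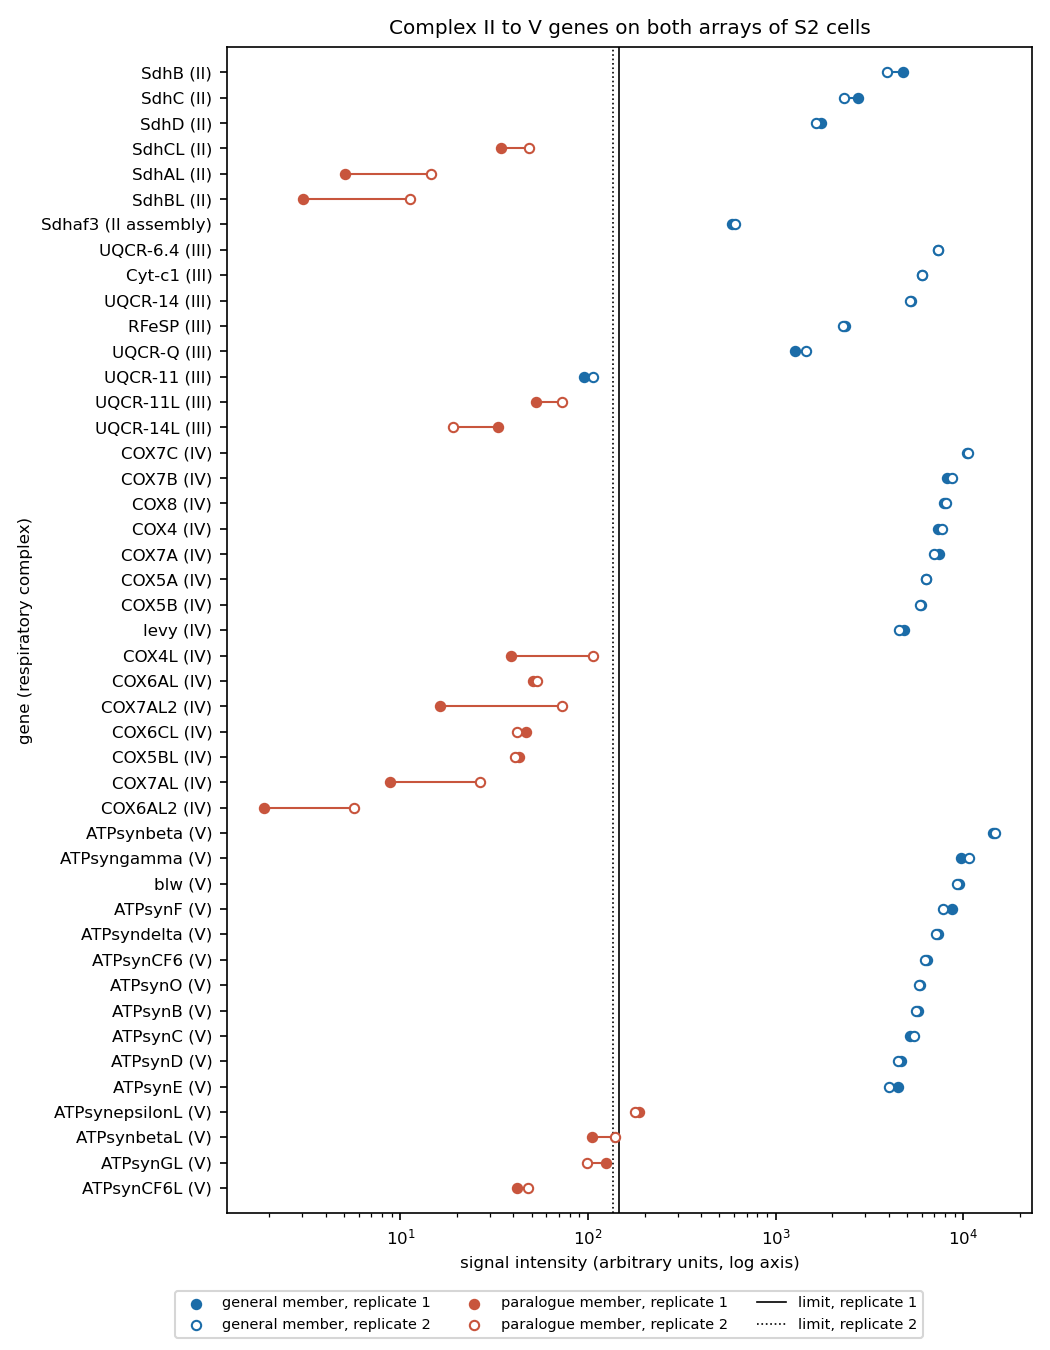
Signal intensity (log axis) of each of the 45 members on replicate 1 (filled) and replicate 2 (open), grouped by complex, with the background limits of 146 and 136 as vertical lines. All general genes but UQCR-11 lie to the right of both limits, and all paralogues but ATPsynepsilonL lie to the left of at least one of them.

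In complex II the 3 measured general subunits were detected and the 3 paralogues were not. SdhB, the iron-sulfur subunit, had signals of 4787 and 3909. The membrane anchor genes SdhC and SdhD stood at 2741 and 2323, and at 1743 and 1641, respectively. All 3 lay far above the limit, and each was lower on replicate 2. Sdhaf3, which helps to mature the iron-sulfur subunit, had 588 and 606. The paralogue SdhAL, a copy of the flavoprotein subunit gene, was at 5.04 and 14.6. SdhBL was at 3.03 and 11.3, and SdhCL at 34.3 and 48.4. These 3 paralogues read lower on replicate 1 than on replicate 2, the opposite order to SdhB, SdhC and SdhD, at signals where the duplicates differed widely for all genes.

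In complex III 5 of 6 general genes and neither paralogue were detected. Cyt-c1, the heme protein that reduces cytochrome c, had signals of 6057 and 6063. The subunit genes UQCR-6.4 and UQCR-14 stood at 7384 and 7337, and at 5297 and 5208. UQCR-Q, which encodes a small subunit, was at 1262 and 1453. RFeSP encodes the Rieske iron-sulfur protein and has 2 probe sets. The brighter, which carries the suffix for alternative transcripts of a gene, gave 2357 and 2294. The other gave 138 and 102, below the limit on both arrays, so the call rests on the first.

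UQCR-11, the hinge protein gene of complex III, was the general member that was not detected. Its only probe set read 95.7 and 106, within the range of the paralogues and below the limit on each array. The paralogue UQCR-11L was at 52.7 and 72.4, and UQCR-14L at 32.9 and 19.0. A single probe set stands for UQCR-11, and whether the gene is silent or the probe set responds weakly was not tested.

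All 8 measured general genes of complex IV, cytochrome c oxidase, were detected. They encode the nuclear subunits that surround the mitochondrially encoded core. COX4 had signals of 7349 and 7741. COX5A, in which fly mutations arrest cells before S phase, had 6321 and 6330. COX5B stood at 5971 and 5865. All of these repeated closely between the arrays. The subunit 6A gene levy, named for a mutant that is paralysed at high temperature, was at 4838 and 4557, and COX7A was at 7469 and 7017. COX8 had 7917 and 8070. Levels of COX7B and COX7C depended on the probe set. Of 3 for COX7B, the brightest gave 8202 and 8691, another 6015 and 5714, and the last 64.5 and 49.5, below the limit. For COX7C, 1 probe set gave 10429 and 10610 and the other 104 and 172, which exceeded the limit on replicate 2 alone. Both genes thus passed by their brighter probe sets only.

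None of the 7 paralogues of complex IV was detected. COX4L stood at 38.9 and 106, apart on the duplicates yet below the limit on both. COX5BL was at 42.6 and 40.8, COX6AL at 51.0 and 53.4, and COX6CL at 46.5 and 41.8. These 3 read alike on the duplicates. COX7AL was at 8.78 and 26.5, and COX7AL2 at 16.2 and 72.6. COX6AL2 was at 1.86 and 5.68. The paralogues of subunits 6A and 7A come as 2 copies each, and neither copy passed.

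All 11 measured general genes of complex V were detected, with signals of 4493 to 14484 on replicate 1 and 4025 to 14848 on replicate 2. The catalytic head is built of alpha and beta subunits. The alpha subunit gene blw (bellwether) had 9440 and 9274. ATPsynbeta had 14484 and 14848 by one probe set and 5980 and 5032 by the other, both far above the limit. ATPsyngamma, the rotating shaft, was at 9722 and 10702, and its second probe set at 9405 and 9448. ATPsyndelta, of the central stalk, was at 7368 and 7150. The head and central stalk genes were thus all detected by each probe set they have.

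The membrane ring gene ATPsynC had signals of 5206 and 5475. Among genes of the peripheral stalk, ATPsynO was at 5887 and 5814, ATPsynB at 5726 and 5626, and ATPsynD at 4642 and 4481. ATPsynCF6, also of that stalk, had 6383 and 6290. These repeated closely on the duplicates. The small membrane subunit genes ATPsynE and ATPsynF stood at 4493 and 4025, and at 8709 and 7801, and both were lower on replicate 2. The brightest probe sets of ATPsynC, ATPsynD, ATPsynE, ATPsynF and ATPsyngamma carry the suffix for probes shared with transcripts that the array's design held to be other genes. Among the paralogues 1 of 16, COX7AL2, has such a probe set. For these 6 genes a share of the signal from another transcript was not tested. The detection of ATPsyngamma does not rest on the shared probes, since its other probe set, without that suffix, gave 9405 and 9448.

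Complex V held the only paralogue that was detected, 1 of 4. ATPsynepsilonL, a copy of the epsilon subunit gene, had signals of 186 and 178, above the limits of 146 and 136. ATPsynbetaL, the copy of the beta subunit gene, was at 105 and 139 and passed on replicate 2 alone. Below both limits stood ATPsynGL, at 124 and 98.8. So did ATPsynCF6L, at 41.7 and 47.9, which leaves ATPsynepsilonL and ATPsynbetaL. The paralogues that passed the limit on either array were thus both copies of ATP synthase genes. With the stricter limit of the 99th percentile ATPsynepsilonL was no longer detected and no paralogue was left.

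The calls of 28 general genes held at higher limits up to 500 and fewer passed beyond that. The few members near the background limit changed side as that limit was moved. Taking the lower of a member's 2 signals, the nearest members above and below the limit were ATPsynepsilonL at 178 and ATPsynbetaL at 105, and the next above was Sdhaf3 at 588. Limits of 200, 300 and 500 on both arrays were each passed by 28 general genes and by no paralogue, since ATPsynepsilonL lies below them. The share of all genes above fell from 46.1% at 200 to 34.9% at 500. At a limit of 1000, which 21.6% of all genes passed, 27 of 29 general genes passed (93.1%). A limit of 5000 was passed by 2.56% of all genes and by 19 of 29 general genes (65.5%). No paralogue passed either limit.

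**Figure D2:**
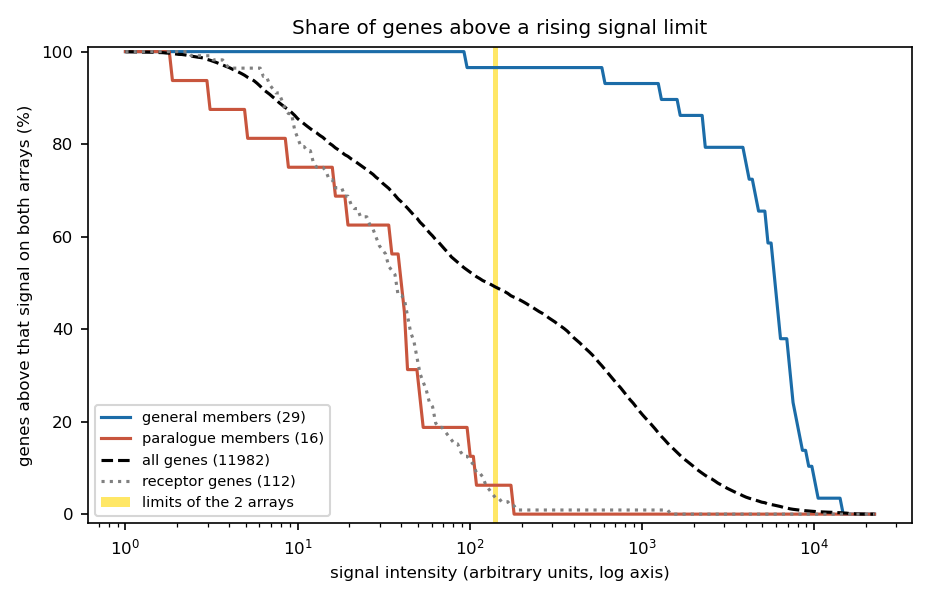
Share of genes (%) whose signal exceeds a given limit on both arrays, plotted against that limit (arbitrary units, log axis), for 29 general members, 16 paralogues, all 11982 genes and 112 receptor genes. The band marks the limits used, 136 to 146, which were taken from the probe sets of the receptor genes. No paralogue lies above 200, and 65.5% of the general members lie above 5000 against 2.56% of all genes.

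Each paralogue was then set beside the general gene it is named after. For this purpose levy stood for subunit 6A, cype for subunit 6C and sun for the epsilon subunit, as the synonyms in the gene table give them. Both genes were measured in 14 pairs, which rest on 12 general genes, since levy and COX7A each have 2 paralogues. In 12 pairs the general gene was detected and the paralogue was not. In the pair of sun and ATPsynepsilonL both were detected, and in the pair of UQCR-11 and UQCR-11L neither was. The general gene was at 274 and 279 for sun, and sun has a single probe set. Of the 18 pairs in the gene table, measured or not, 7 share a chromosome arm. COX5B and COX5BL have 1 protein-coding gene starting between them, and COX7A and COX7AL have 2, yet within each of these pairs only the general gene was detected.

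**Figure D3:**
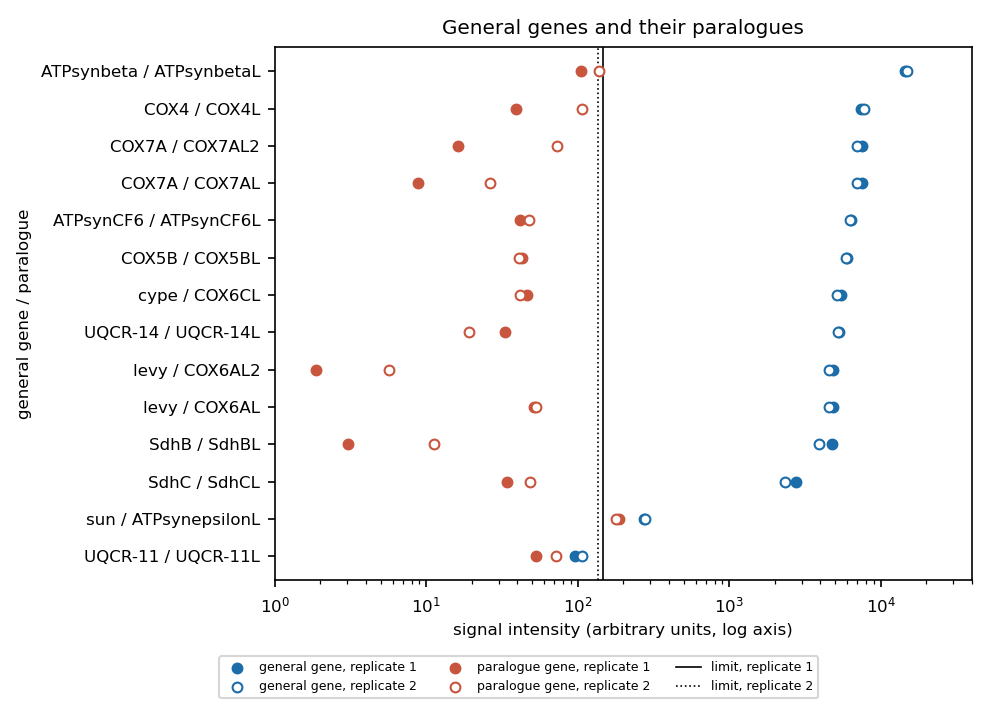
Signal intensity (log axis) of the general gene (blue) and its paralogue (red) in the 14 pairs measured, on replicate 1 (filled) and replicate 2 (open), with the background limits as vertical lines. In 12 pairs only the general gene passed on both arrays, although ATPsynbetaL, at 139 on replicate 2, lies just above that array's limit. The other pairs are sun with ATPsynepsilonL, both detected, and UQCR-11 with UQCR-11L, neither detected.

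Subunit genes that the symbol rule leaves out fell the same way. The complex IV gene cype had signals of 5446 and 5172, and the complex III gene ox 4523 and 4665. The gene sun was detected, at the low signals given above. The gene knon, a copy of the subunit D gene of complex V named for a defect in sperm mitochondria, was at 6.57 and 20.7 and was not detected. Complex I, the entry point for electrons from NADH, showed the same division: 26 of 27 measured general genes and 0 of 5 paralogues were detected. ND-B8, at 31.1 and 9.81, was the general gene of complex I that was not. The comparison with complex I was added with these results known.

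Genes related to other mitochondrial functions or to the citric acid cycle were counted in lists, without regard to where in the cell each product acts. Of 10 measured assembly factor genes, Sdhaf3 included, all were detected, with Scox, a copper chaperone gene for complex IV, at 1437 and 1377, and Bcs1, which inserts the Rieske protein into complex III, at 227 and 286. Of 9 genes for mitochondrial DNA and its expression all were detected, including TFAM, which packages that DNA, at 1284 and 1152. Of 14 measured genes on the citric acid cycle list 10 were detected. The 4 that were not are mAcon2, at 12.0 and 9.81, Fum2, Fum3 and Fum4, copies of aconitase and fumarase genes, while mAcon1 had 4166 and 4029. Fum1, kdn and Mdh2, also on the list, were not measured, so the fumarase copies have no general gene beside them. Of 6 carrier and porin genes 4 were detected. The phosphate carrier gene Mpcp2 had 8005 and 7996 and its relative Mpcp1 65.2 and 48.1. The channel gene porin had 5334 and 4971 and Porin2 55.3 and 52.4. The probe sets of Bcs1, of Idh and Ogdh on the citric acid cycle list, and of sesB, Ant2, Mpcp2 and porin carry the suffix for shared probes. All 4 detected carrier and porin genes thus have it, while Mpcp1 and Porin2, which were not detected, lack it. For the genes with that suffix a share of the signal from another transcript was not tested. Counts in these lists compare with the 49.1% of all genes, and no test was made.

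Testis markers were counted beside the paralogues, though neither array comes from testis. Of 28 measured testis markers 4 were detected (14.3%), compared with 49.1% of all genes. These were topi (151 and 145), mia (668 and 556), twe (183 and 244) and ntc (238 and 167). The sperm tail gene dj, at 4.51 and 14.7, and Mst98Cb, at 5.13 and 2.74, were not. Nearer the limit, bol, at 136 and 138, exceeded it on replicate 2 alone. The marker betaTub85D, at 124 and 55.3, stayed below it on both arrays. The summed signal of the list was 2325 on replicate 1 and 2036 on replicate 2. The part of this list in the paralogue signals was not tested.

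Between the duplicates the detected members differed little. The log2 signal on replicate 2 minus that on replicate 1 had a median of -0.02 and an SD of 0.10 over the 29 detected members, and 11 of them were higher on replicate 2. Over all 5886 detected genes the median was -0.00222 and the SD 0.22. Of the detected members 23 (79.3%) were within 0.10 of 0, compared with 42.1% of all detected genes and 49.9% of those with a mean signal over 4000. All 29 lay between the 5th and 95th percentiles of detected genes, -0.32 and 0.36. Each replicate is 1 array, so these differences have no test.

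By complex, each of the 3 detected subunit genes of complex II fell below its replicate 1 signal on replicate 2, and their median was -0.24. SdhB had the lowest difference of any detected member, -0.29, and SdhC had -0.24. In complex III the median was -0.00912, with UQCR-Q, the highest of the detected members, at 0.20. The 8 genes of complex IV had a median of 0.01 and ran from -0.09 to 0.08. The 12 detected genes of complex V had a median of -0.03, and 9 of them were lower on replicate 2. Among complex I genes 22 of 26 were lower on replicate 2, with a median of -0.12. The direction within complex IV turned with the scaling: 5 of 8 genes were higher on replicate 2 as deposited, and 2 of 8 after median scaling or quantile normalization, with medians of -0.05 under each. Median scaling, which moved the median of all detected genes to -0.06, gave medians of -0.07 for complex III and -0.09 for complex V, and quantile normalization gave -0.03 and -0.05. In complex II all 3 genes were lower on replicate 2 under both, with medians of -0.30 and -0.22.

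**Figure D4:**
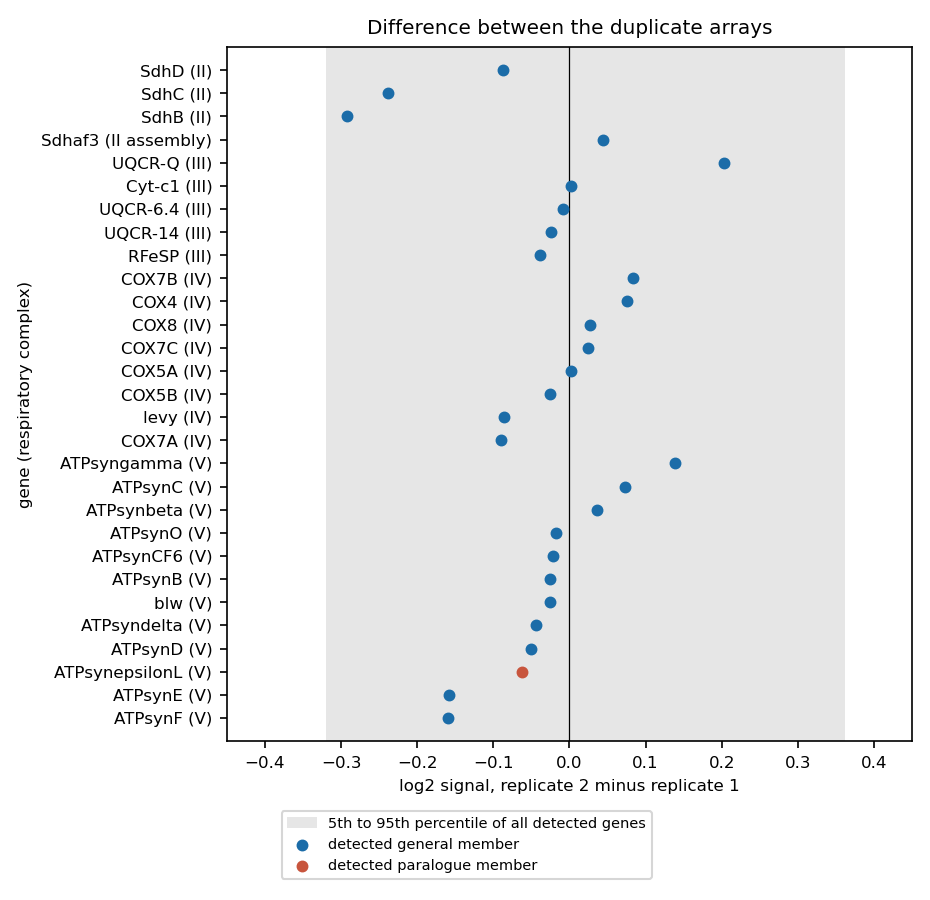
Difference of log2 signal, replicate 2 minus replicate 1, for the 29 detected members ordered by complex, with the range between the 5th and 95th percentiles of all 5886 detected genes shaded (-0.32 to 0.36). All 29 points lie inside the shaded range, and SdhB, at -0.29, lies closest to its edge.

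Below the limit the duplicates differed widely. Over the 16 members that were not detected the log2 difference had an SD of 0.90 and ran from -0.79 for UQCR-14L to 2.16 for COX7AL2. Over all 6096 genes that were not detected the SD was 1.08. Of these 16 members, 15 paralogues and UQCR-11, 12 (75.0%) read higher on replicate 2, with a median of 0.43. Among all genes that were not detected 53.0% read higher there, with a median of 0.05. Signals this low on 1 array each give no test of that difference.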

How the data were processed

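Gene expression in S2 cells was measured on 2 Drosophila Genome 2.0 arrays. Per the labels' protocols, total RNA was amplified into biotin-labelled RNA from its poly(A) tails. Data were obtained with GeneChip Operating Software 1.2.0.037, per the design text. The values the authors deposited are signal intensities on a linear scale, with 1 for each probe set on each array. For the summary algorithm, scaling and filters nothing was stated. Signals were used as they stand, and having only 2 arrays limits the precision.

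Of 18952 probe sets 13647 had 1 gene in the platform annotation and 402 had several. Symbols were updated through gene identifiers in a RefSeq table of the Release 6 assembly, which matched 11894 of 11982 genes. That table served for names and neighbours only. Differences are log2 values computed from the deposited signals, with signals under 1 raised to 1.

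There is 1 group, so counts have no test and are set beside the share of all genes. Every member is named. Members, lists and limits were chosen with earlier results of these data known, and the limits of 200 to 5000 and the counts for complex I were added later. Promoter and protein comparisons had been planned and were not made, since the tables used here hold no sequence. Detection and differences were computed with Python 3.11.15 and pandas 2.3.3, after the code was tested on simulated data. Other percentiles, control probe sets, scalings and single arrays were tried as alternatives.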

Additional observations from a re-analysis of the deposited data

Results flagged for a closer look

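Among probe sets that the annotation gives to several genes, 4 list a gene of complexes II to V together with another gene. They were left out of all counts, since their signal cannot be given to either gene. Of these 4, 2 were above the background limit on both arrays, a signal in data that the comparisons do not use.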

How the results depend on the processing

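The count of detected members ran from 26 to 32 of 45 over 8 alternatives, that of general genes from 25 to 29 of 29, and that of all genes from 5251 to 6652. The low numbers of members and of general genes came from requiring every probe set to pass, which lost COX7B, COX7C and RFeSP. For all genes the low number, 5251, came from the 99th percentile limit. The count of paralogues was small and moved most. It was 1 as reported, 2 with the 90th percentile limit, 0 with the 99th and 3 with a limit set by 50 control probe sets (85.0 and 70.3 on replicates 1 and 2), under which UQCR-11 passed too. The paralogues gained were ATPsynbetaL in both cases and ATPsynGL with the control limit alone. All genes detected came to 51.6%, 43.8% and 55.5% under these limits. Leaving out a replicate gave 1 or 2 paralogues, 29 or 30 members and 5951 or 6068 genes, where ATPsynbetaL passed without replicate 1. With every probe set required the count of paralogues was 1. Median scaling and quantile normalization also gave 1, but these settings could hardly change a call. They keep the order of signals on each array, and the limit was taken anew from the rescaled receptor signals. The median difference of the detected members, -0.02 as reported, was -0.08 with median scaling and -0.05 after quantile normalization. It was 0.00155 when members below the limit were included, and -0.03 with the mean over probe sets. A floor of 10 could not change it, since all detected members have higher signals, and left it at -0.02. Counting Cyt-c-d as a paralogue, or leaving it out of the general genes, gave no value, since it was not analysed here. No paired analysis was possible because both arrays belong to 1 group. Signals near the limit, as for ATPsynepsilonL, ATPsynbetaL, ATPsynGL and UQCR-11, cannot be called firmly on 2 arrays.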
